A study of Mus musculus with 12 samples.

Results

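Axon guidance cues are ligand and receptor families that steer growing axons and that also act on cell position, adhesion and vessel growth in many developing organs. Their genes were followed here in somatic support cells of the mouse fetal gonad, the lineage that becomes Sertoli cells in the testis and granulosa cells in the ovary. The set was chosen by gene symbol: semaphorins of classes 3 to 7, plexins A to D, neuropilins, Slit and Robo genes, Eph receptors and ephrins, netrins, Unc5 receptors, Dcc and Neo1. It holds 157 of the 45037 probe sets of the Affymetrix Mouse Genome 430 2.0 array, and 70 of the 18193 genes that the array's table names for a probe set with a single symbol. A value on every array was present for 152 of these probe sets, which cover 69 genes and were tested. The 5 that were blank on all arrays are 1 probe set of Plxna3, 1 of Slit1, 2 of Slit2 and the sole probe set of Slit3. Plxna4os1, an antisense RNA of the Plxna4 locus, falls under the symbol rule and is counted with the plexins.

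Total RNA had been extracted from pools of cells sorted by flow cytometry from gonads of XX and XY embryos taken 11.5 (E11.5) or 12.5 (E12.5) days into gestation, and was amplified in a 2-round procedure before hybridisation. Each of the 4 groups held 3 pools, with 1 array per pool and 12 arrays in all. Every group, XX and XY alike, came from a transgenic strain labelled FVB.Cg, with both Tg(Tyr)3412ARpw, a tyrosinase transgene, and Tg(Sry-EGFP)92EI, a reporter that places enhanced green fluorescent protein under Sry sequences. The sample titles name no treatment, and no group without the transgenes was part of the comparisons. The sources used here give neither the marker or gate of the sort nor the number of embryos per pool. Nothing says that pools came from separate litters, so the tests weigh differences against the scatter among these pools, which may in part be technical.

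In the nervous system secreted class 3 semaphorins are bound by a neuropilin, and the signal is passed into the cell by a type A plexin; most other semaphorins are membrane-bound and bind plexins directly. Slits are secreted ligands of Robo receptors, and netrins are laminin-related ligands of Dcc and neogenin (Neo1), with Unc5 receptors turning attraction into repulsion. Ephrins are held on the cell surface, the A type by a lipid anchor and the B type by a transmembrane segment, and bind Eph receptor tyrosine kinases on neighbouring cells. In the fetal gonad, cells move and sort in these same days as testis cords form in XY and as vessels enter from the mesonephros.

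Values are log2 signals of 1 probe set, so levels are compared between arrays and not between probe sets. A probe set is called where its two-sided p from limma, adjusted by Benjamini and Hochberg's method over all 44238 probe sets tested, was under 0.05. A fold is 2 raised to the log2 difference, and its interval is the 95% interval of the fit. In XX arrays, where their target is absent, 4 probe sets of Y-linked genes read 3.33 to 5.17, against 6.86 to 11.36 in XY. These 4 were picked because they separated the sexes, so that gap follows from the choice. Folds whose lower group mean lies at or under 5.17 are given as at least the measured size. Background may lie higher at other probe sets: Xist read 6.56 to 7.87 in XY arrays. Other folds with a low group mean may thus also be understated. The mean over 12 arrays lay at or under 5.17 for 29 of the 152 guidance probe sets, and above the median of all probe sets (6.57) for 80 (52.6%).

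The labels were checked first. Xist read 12.8 to 12.95 in XX and 6.56 to 7.87 in XY arrays, so no array went against its sex. The supporting cell genes Wt1 (11.53 to 12.73), Gata4 (8.6 to 10.57) and Nr5a1 (10.42 to 12.3) were present on all 12 arrays. Sox9, the Sertoli cell transcription factor, read 10.04 to 11.5 in XY and 5.6 to 6.58 in XX, and Foxl2, which marks the ovarian lineage, read 11.03 to 11.11 in XX at E12.5 and 7.39 to 8.01 in XY. Array medians lay between 6.494 and 6.592.

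One library stood apart in ways that touch these families. In XX E11.5 pool 2 the mean of 12 endothelial markers was 1.53 above its 12-array mean, and that of 9 markers of interstitial mesenchyme was 1.46 above. On that array 10 guidance probe sets (6.58%) were higher than on any other by at least 1 log2 unit, against 502 (1.13%) of all probe sets. They belonged to Dcc, Efna5, Epha3, Epha7, Nrp1, Slit2, Unc5b and Unc5c. Unc5b, a netrin receptor known from endothelium, read 9.47 there and 7.27 to 7.8 on the other arrays. Unc5c read 9.99 there and 7.7 to 8.51 elsewhere, and Efna5 10.12 there and 6.89 to 8.69 elsewhere. XY E11.5 pool 3 was highest by that margin at 2 guidance probe sets and at 329 probe sets in all. The part of other cells in these values was not tested.

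**Figure D1:**
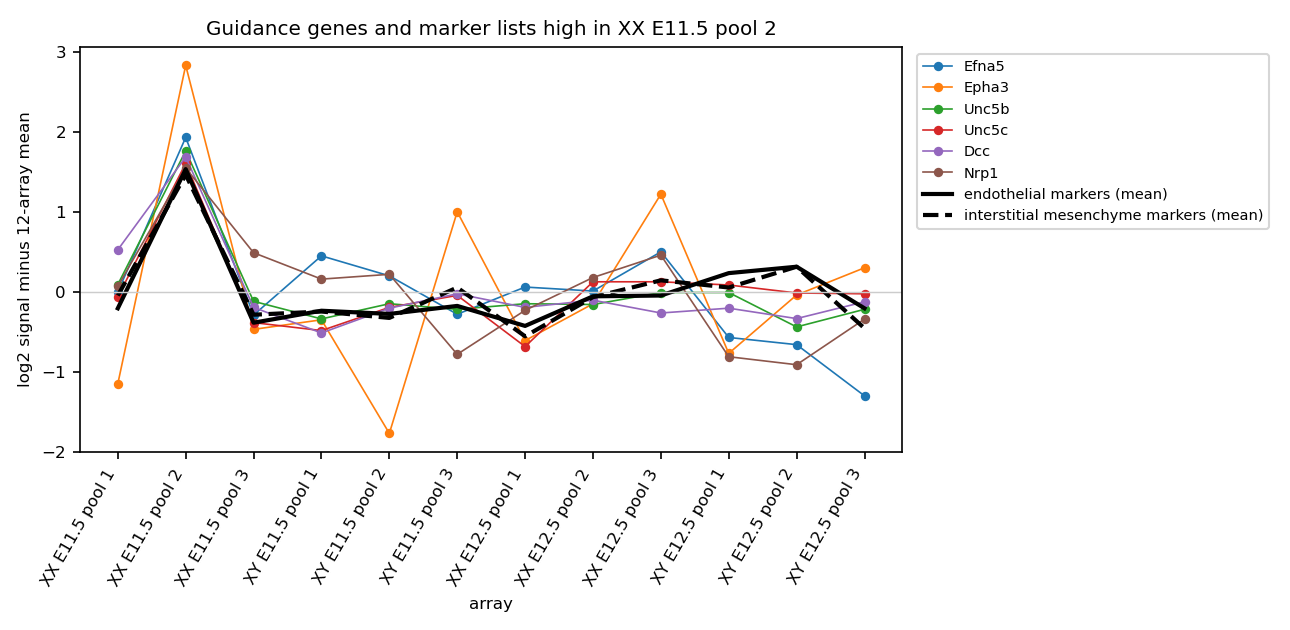
Log2 signal minus the 12-array mean (vertical axis) on each of the 12 arrays (horizontal axis) for 6 guidance genes, 1 probe set each, with the mean of the endothelial (solid black) and interstitial mesenchyme (dashed black) marker lists. All 8 lines peak in XX E11.5 pool 2, where the marker lists lie 1.53 and 1.46 above their means. The 6 genes were picked from those highest on that array, so their peak there follows from the choice.

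At E12.5 26.1% of the measured guidance genes had a probe set that differed between the sexes, against 13.9% of all genes, and they did so in both directions. In all 27 of 152 probe sets (17.8%) were called between XY and XX, against 7.72% of all probe sets. Of these 11 were higher in XY (7.24%, against 3.92% of all) and 16 lower (10.5%, against 3.81% of all). They belong to 18 of the 69 genes. The 69 genes have 152 probe sets and all 17996 genes have 34328, so a guidance gene had more that could be called. The families, and the pathway lists below, were chosen with earlier results of these data known. Higher in XY were Robo1, Plxnb3, Ntn4, Sema3g, Sema4a, Ephb6, Ntn1, Ephb1 and Epha2. Lower in XY were Plxna2, Sema3a, Efna1, Nrp1, Plxna4, Sema6d, Plxna3, Efnb1 and Neo1. In bulk samples such as these, fewer cells of a type and less RNA per cell cannot be told apart. The median log2 difference over the 152 was -0.06, against 0.0 over all probe sets, and the median size was 0.3 against 0.2.

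At E11.5 0 of the 152 were called by limma, against 0.0678% of all probe sets (0.0543% higher and 0.0136% lower in XY), and the smallest adjusted p was 0.29. An unadjusted p under 0.05 was reached by 18 guidance probe sets (11.8%, against 6.81% of all). The first of them was Ephb1, an Eph receptor, with 9.58, 9.34 and 9.66 in XX and 10.18, 10.11 and 10.29 in XY. The groups did not overlap there, and the log2 difference was 0.67 ± 0.14 (SE, adjusted p = 0.29). Plxnc1 (0.68 ± 0.17) and Sema3a (0.83 ± 0.24) came next and were not called either. Without XY E11.5 pool 3 a single probe set was called, of Epha4 (log2 difference 0.98, adjusted p = 0.0095). It read 4.65 in both remaining XY pools, at or under 3.74 in the XX pools and 3.55 in the pool left out, all within the background range.

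**Figure D2:**
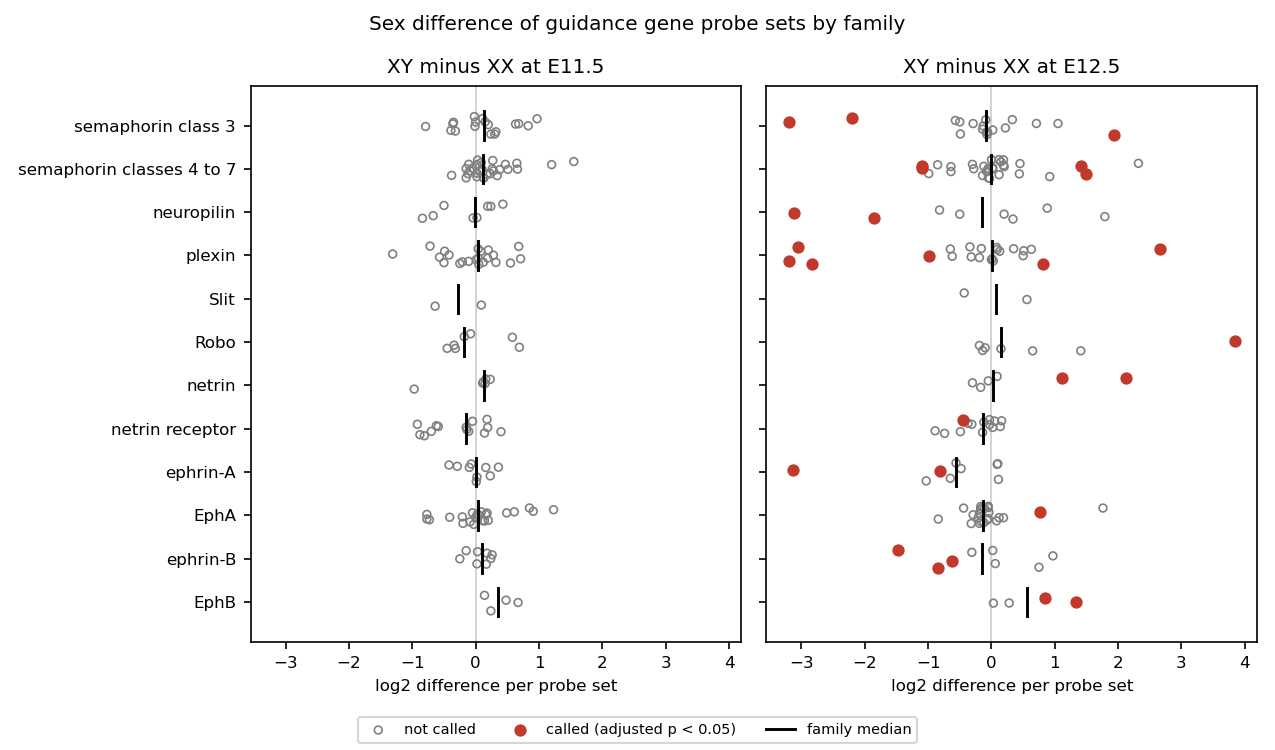
Log2 difference XY minus XX (horizontal axes) of each of the 152 guidance probe sets, by family (vertical axis), at E11.5 and E12.5. Filled red points are called, open grey points are not, and black bars are family medians; no point is called at E11.5 and 27 are at E12.5.

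Family by family, the E12.5 calls are to be read against the 7.72% of all probe sets called, and in families of few probe sets 1 call moves the share far. In class 3 semaphorins 3 of 18 probe sets were called, in classes 4 to 7 4 of 30, in neuropilins 2 of 8 and in plexins 6 of 22. For Slits it was 0 of 2, for Robo receptors 1 of 7, for netrins 2 of 6 and for netrin receptors 1 of 14. For ephrin-A it was 2 of 9, for EphA receptors 1 of 24, for ephrin-B 3 of 8 and for EphB receptors 2 of 4. Some of these counts repeat 1 gene. The ephrin-A calls were all of Efna1 (1 of 5 genes) and the ephrin-B calls all of Efnb1 (1 of 3 genes). The neuropilin calls were all of Nrp1 (1 of 2 genes). The shares of netrin receptors (7.14%), EphA receptors (4.17%) and Slits lay under that of all probe sets. Every called ephrin probe set, of Efna1 or Efnb1, was lower in XY. Each called Eph receptor probe set, of Epha2, Ephb1 or Ephb6, was higher. Family medians lay between -0.56 for ephrin-A and 0.56 for EphB, and the other 10 families lay between -0.15 and 0.15.

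**Figure D3:**
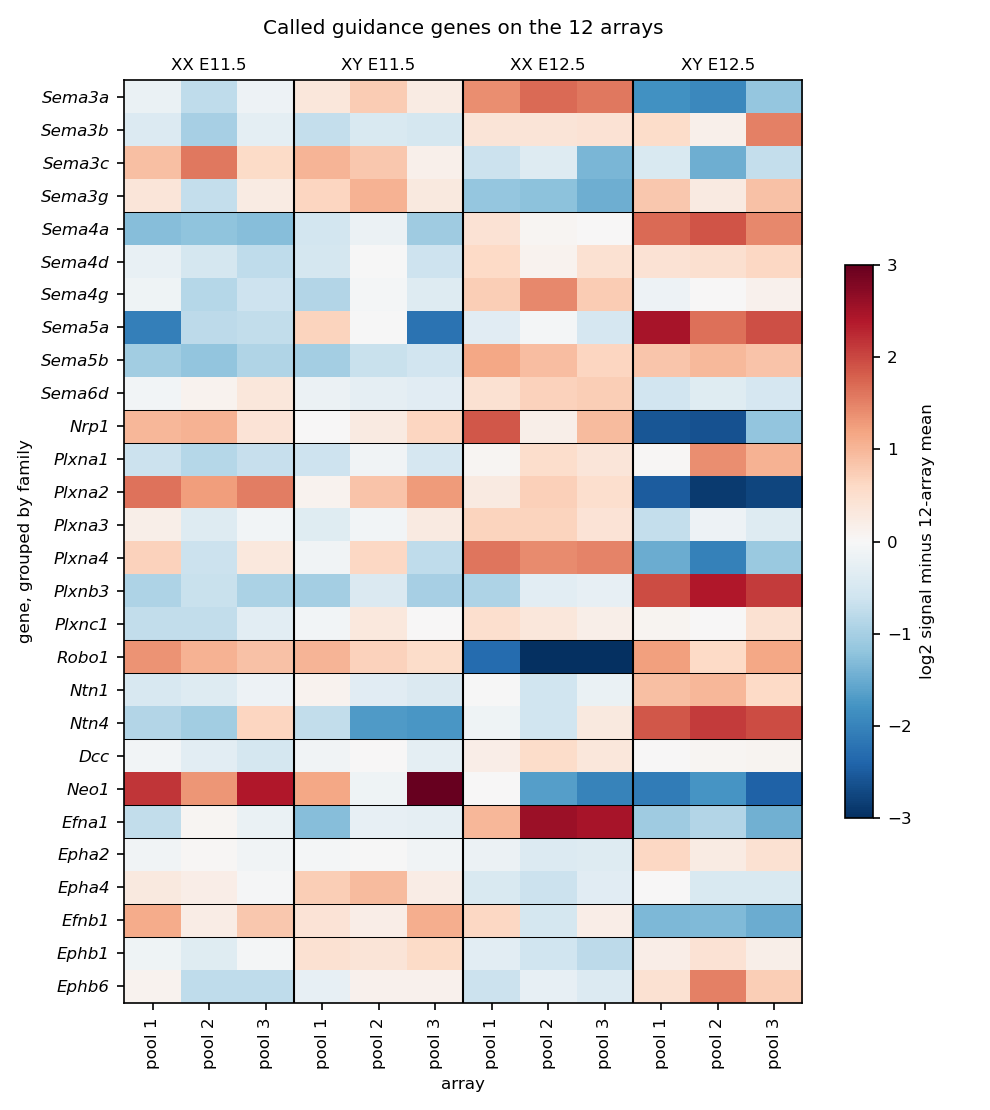
Log2 signal minus the 12-array mean (colour, limited at 3 log2 units in either direction) on the 12 arrays (columns, by group) for the 28 guidance genes called in any comparison (rows, by family), each at its called probe set with the smallest p. The XY E12.5 columns are blue for Sema3a, Nrp1, Plxna2 and Plxna4 and red for Sema4a, Plxnb3 and Ntn4, and Robo1 is blue in the 3 XX E12.5 columns alone.

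Other cell types were followed with marker lists beside these counts. Of 12 endothelial markers 0 were called by limma at E12.5 (0 at an unadjusted p under 0.05), and their mean level per array was 6.34 to 8.26 in XX E11.5, 6.45 to 6.55 in XY E11.5, 6.3 to 6.68 in XX E12.5 and 6.52 to 7.04 in XY E12.5. Of 9 mesenchymal markers Pdgfra and Ptch1 were higher and Nr2f2 lower in XY at E12.5, with a mean level of 8.05 to 8.74 in XX and 8.15 to 8.92 in XY. Of 12 macrophage markers Fcgr3 was higher (2.34-fold), with a mean level of 6.85 to 7.1 in XX and 7.43 to 7.73 in XY. Of 7 markers of neural crest and neurons Sox10 was higher (3.07-fold), with a mean level of 5.98 to 6.1 in XX and 6.04 to 6.28 in XY. Of 3 measured erythroid markers Klf1 was higher (2.68-fold; adjusted p = 0.015), and the mean level of the list was 5.68 to 5.72 in XX and 6.31 to 6.48 in XY at E12.5, without overlap. Hba-a1, a globin gene, read 4.82 to 5.14 in XX and 5.04 to 5.11 in XY there, in the background range. Of 8 germ cell and 2 mesonephric markers 0 were called by limma at E12.5 (1 and 1 at an unadjusted p under 0.05), with mean levels of 5.32 to 6.37 and 5.86 to 6.64 in XX and 5.25 to 6.39 and 5.46 to 5.93 in XY. The ranges of the macrophage and erythroid lists lay higher in XY than in XX. Over the day in XY, Fcgr3, Cd68, Sox10 and Ptch1 rose and Nr2f2 fell, and in XX Nr2f2 and Pdgfra fell. The macrophage list read 5.96 to 6.78 in XY at E11.5 and 7.43 to 7.73 at E12.5, without overlap. Its median log2 day difference in XY at the brightest probe sets was 1.2. By limma 7 of its 12 genes reached an unadjusted p under 0.05. The erythroid list read 5.82 to 6.17 and then 6.31 to 6.48, and the ranges of the other lists given here overlapped between the days in XY. The part of such cells in the guidance gene differences was not tested.

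Class 3 semaphorins and their receptors did not move one way at E12.5. At their called probe set with the smallest p, Sema3a, Nrp1, Plxna2 and Plxna4 were 9.15, 8.66, 9.2 and 8.26-fold lower in XY than in XX, and the pools of the sexes did not overlap in any of them. Sema3g was higher in XY, and at their brightest probe sets Nrp2 (1.79), Plxna1 (0.51) and Plxnd1 (0.63) had log2 differences above 0 without a call. Promoter sequence is shown for Sema3a, Nrp1 and Plxna2, so that the start regions of genes that moved apart can be set side by side. It is also shown for the 2 genes with the largest called differences in the other direction, Robo1 and Plxnb3. Plxna4 is left out because the RefSeq promoters used here hold no entry for it. The sequences are the 250 bases before the RefSeq transcription start on GRCm38.p6, all on the + strand: chr5:13396534-13396783 for Sema3a, chr8:128358823-128359072 for Nrp1, chr1:194619579-194619828 for Plxna2, chr16:72662899-72663148 for Robo1 and chrX:73756853-73757102 for Plxnb3. Capitals mark matches, on either strand, to 5 words known from binding sites of factor families active in this lineage: AACAAT for SOX factors, ACAAAG also for SOX factors, AGATAA for GATA factors, AAGGTCA for NR5A factors and GTAAACA for forkhead factors. No matches overlapped, and positions are those of the first base of a match as printed.
Sema3a: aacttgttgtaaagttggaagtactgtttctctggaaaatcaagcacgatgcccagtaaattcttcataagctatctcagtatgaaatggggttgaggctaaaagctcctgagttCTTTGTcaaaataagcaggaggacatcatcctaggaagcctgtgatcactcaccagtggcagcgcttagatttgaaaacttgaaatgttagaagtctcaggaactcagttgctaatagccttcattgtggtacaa
Nrp1: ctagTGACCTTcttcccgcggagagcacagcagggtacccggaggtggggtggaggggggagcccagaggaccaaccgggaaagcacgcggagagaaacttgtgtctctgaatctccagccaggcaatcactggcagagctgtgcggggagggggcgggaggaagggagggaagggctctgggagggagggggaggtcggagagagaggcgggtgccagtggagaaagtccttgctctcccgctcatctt
Plxna2: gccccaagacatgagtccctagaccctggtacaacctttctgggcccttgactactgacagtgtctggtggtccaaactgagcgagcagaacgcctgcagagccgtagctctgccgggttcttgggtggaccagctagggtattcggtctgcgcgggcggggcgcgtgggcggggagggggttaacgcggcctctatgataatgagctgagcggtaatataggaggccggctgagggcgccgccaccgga
Robo1: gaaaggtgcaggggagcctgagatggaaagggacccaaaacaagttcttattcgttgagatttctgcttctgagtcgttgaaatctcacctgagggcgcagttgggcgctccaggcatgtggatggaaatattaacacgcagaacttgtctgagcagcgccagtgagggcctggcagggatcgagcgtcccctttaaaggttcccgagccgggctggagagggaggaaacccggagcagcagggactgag
Plxnb3: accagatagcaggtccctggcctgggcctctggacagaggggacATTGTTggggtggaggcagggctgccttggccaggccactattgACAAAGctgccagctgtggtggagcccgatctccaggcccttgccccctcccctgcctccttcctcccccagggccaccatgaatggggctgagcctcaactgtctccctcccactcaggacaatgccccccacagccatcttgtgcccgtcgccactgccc
The Sema3a window held 1 match, ACAAAG on the - strand, 135 bases before the start. That of Nrp1 held 1, AAGGTCA on the - strand at 246, and that of Plxnb3 held 2, AACAAT on the - strand at 206 and ACAAAG on the + strand at 162. The windows of Plxna2 and Robo1 held 0, which says only that these letters are not in them. Over 32851 RefSeq windows of the same length, AACAAT was present in 9.42%, ACAAAG in 16.5%, AGATAA in 9.99%, AAGGTCA in 4.08% and GTAAACA in 3.17%. GC content was 40.8% for Sema3a and 64.4%, 62.8%, 56.0% and 65.2% for Nrp1, Plxna2, Robo1 and Plxnb3.

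Sema3a, a secreted repulsive ligand, moved in opposite directions in the 2 sexes. It read 9.46, 8.91 and 9.51 in the XX and 10.02, 10.43 and 9.92 in the XY pools of E11.5, and 11.06, 11.37 and 11.25 in the XX and 7.85, 7.73 and 8.52 in the XY pools of E12.5. The XX pools of E12.5 were the highest and the XY pools of E12.5 the lowest of all 4 groups, with no overlap between any of them. At E12.5 the signal was 9.15-fold lower in XY (6.32 to 13.2; adjusted p = 4.5e-05). From E11.5 to E12.5 it rose 3.82-fold in XX (2.64 to 5.53; adjusted p = 0.0054) and fell 4.26-fold in XY (2.94 to 6.15; adjusted p = 0.00095). A second Sema3a probe set was 4.61-fold lower in XY at E12.5 (adjusted p = 0.0054) and rose 4.45-fold in XX, while its change in XY (-1.02 ± 0.37) was not called. The third stayed between 3.98 and 5.05 on all arrays, in the background range. The XX rise of the second probe set was no longer called without pool 2 of XX E11.5 or pools 2 or 3 of XX E12.5 (adjusted p up to 0.081).

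Nrp1 encodes neuropilin 1, which binds Sema3a and is also a coreceptor of vascular endothelial growth factor. Its brightest probe set read 11.26, 11.32 and 10.69 in the XX and 10.29, 10.55 and 10.93 in the XY pools of E11.5, and 12.13, 10.44 and 11.23 in the XX and 7.71, 7.65 and 9.1 in the XY pools of E12.5. The 3 XY pools of E12.5 were below the other 9 arrays. The level was 8.66-fold lower in XY than in XX at E12.5 (4.21 to 17.8; adjusted p = 0.0028), and the fall in XY from E11.5 was 5.42-fold (2.64 to 11.1; adjusted p = 0.014). In XX the day change was 0.17 ± 0.47 and was not called. A second of the 4 Nrp1 probe sets was called at E12.5 (3.63-fold lower; adjusted p = 0.028), and the other two differed by -0.82 and -0.5 without a call. The 3 probe sets without a day call differed by -0.55, -1.54 and -1.68 in XY. The day fall in XY was lost without pool 3 of XY E11.5 or pools 1 or 2 of XY E12.5 (adjusted p up to 0.06), and the E12.5 call of the second probe set without pools 1, 2 or 3 of XX E12.5 or pools 1 or 3 of XY E12.5 (adjusted p up to 0.11).

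Nrp2, the neuropilin that binds Sema3f, was higher in XY without reaching the threshold. Its brightest probe set read 7.45, 9.84 and 6.64 in the XX and 8.46, 7.71 and 7.64 in the XY pools of E11.5, and 6.42, 7.3 and 6.81 in the XX and 8.87, 8.33 and 8.7 in the XY pools of E12.5. At E12.5 the 3 XY pools lay above the 3 XX pools, with a log2 difference of 1.79 ± 0.66 (adjusted p = 0.15), and another probe set gave 0.88 ± 0.24 (adjusted p = 0.051). XX E11.5 pool 2, at 9.84, was the highest of the 12 arrays at the first. Without that array both were called, with adjusted p-values of 0.0084 and 0.015.

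Plxna2 encodes a type A plexin, the signalling partner of the neuropilins. The probe set with the smallest p read 10.5, 10.14 and 10.4 in the XX and 8.99, 9.73 and 10.15 in the XY pools of E11.5, and 9.14, 9.58 and 9.38 in the XX and 6.37, 6.0 and 6.13 in the XY pools of E12.5. All 3 XY pools of E12.5 were more than 2 log2 units below every other array. The level was 9.2-fold lower in XY than in XX at E12.5 (6.17 to 13.7; adjusted p = 7e-05) and changed by -3.46 ± 0.26 in XY over the day (adjusted p = 7.4e-05). A second probe set, the brightest, was 7.1-fold lower in XY at E12.5 (adjusted p = 0.0078) and fell 6.05-fold over the day (adjusted p = 0.016), the latter call being lost without pools 1 or 3 of XY E12.5 (adjusted p up to 0.064). The remaining pair of probe sets differed by 0.08 and -0.62 between the sexes at E12.5, and had day differences of -2.93 and -1.93 in XX and -2.34 and -2.06 in XY, without calls. The probe sets of this gene therefore did not read equal changes.

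Plxna4, another type A plexin, was highest in XX and lowest in XY at E12.5. Its brightest probe set read 9.41, 8.08 and 9.03 in the XX and 8.6, 9.33 and 7.96 in the XY pools of E11.5, and 10.32, 10.14 and 10.21 in the XX and 7.22, 6.69 and 7.61 in the XY pools of E12.5. The 3 XX pools of E12.5 lay above the other 9 arrays and the 3 XY pools below them. The sex difference at E12.5 was 8.26-fold (4.47 to 15.3; adjusted p = 0.0013). The day differences of 1.38 ± 0.4 in XX and -1.46 ± 0.4 in XY were each not called (adjusted p = 0.086 and 0.061). That in XY was called with brighter probe sets alone (adjusted p = 0.034) and with array weights (0.035), among other settings. The other probe set differed by -0.19 at E12.5.

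Plxna3, on the X chromosome, read 8.98, 8.42 and 8.74 in the XX and 8.45, 8.74 and 9.08 in the XY pools of E11.5, and 9.47, 9.47 and 9.22 in the XX and 8.1, 8.66 and 8.43 in the XY pools of E12.5. At E12.5 the XX pools were all above the XY pools, and the level was 1.99-fold lower in XY (1.44 to 2.73; adjusted p = 0.016). The call was lost without pools 1 or 2 of XX E12.5 or pools 1 or 3 of XY E12.5 (adjusted p up to 0.062). Plxna1 read 8.35, 8.13 and 8.29 in the XX and 8.36, 8.88 and 8.48 in the XY pools of E11.5, and 9.04, 9.51 and 9.35 in the XX and 9.01, 10.39 and 10.03 in the XY pools of E12.5. Its rise in XY was 2.36-fold (adjusted p = 0.041), lost without 10 of the 12 arrays, all but pool 2 of XY E11.5 and pool 1 of XY E12.5 (adjusted p up to 0.14); the other probe set differed by 0.15 there. The difference in XX was 1.04 ± 0.3 (adjusted p = 0.087). The sexes did not differ by a call at E12.5 (0.51 ± 0.3), so the type A plexin genes divided into 3 that were lower in XY and 1 that was not called.

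Among the other class 3 ligands Sema3g was the one higher in XY at E12.5. It read 8.3, 7.22 and 8.19 in the XX and 8.57, 8.97 and 8.22 in the XY pools of E11.5, and 6.77, 6.71 and 6.48 in the XX and 8.75, 8.21 and 8.82 in the XY pools of E12.5. The XX pools of E12.5 lay below the other 9 arrays, and the XY level was 3.83-fold higher (2.42 to 6.08; adjusted p = 0.0033). The day difference was -1.25 ± 0.3 in XX (adjusted p = 0.052) and 0.0 in XY. That in XX was called with brighter probe sets alone (adjusted p = 0.034) and with array weights (0.028), among other settings.

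Sema3c, known for its part in the cardiac outflow tract, fell in both sexes. It read 9.73, 10.42 and 9.4 in the XX and 9.85, 9.65 and 8.98 in the XY pools of E11.5, and 8.2, 8.44 and 7.46 in the XX and 8.37, 7.37 and 8.13 in the XY pools of E12.5. The fall was 3.52-fold in XX (adjusted p = 0.035) and 2.91-fold in XY (adjusted p = 0.04) at 1 of 2 probe sets, and the sexes differed by -0.08 ± 0.37 at E12.5. The other probe set differed by -0.06 in XX and -0.94 in XY over the day, without a call. The call in XX was lost without 6 of the 12 arrays, all but pool 1 of XX E11.5, pools 1, 2 and 3 of XY E11.5 and pools 1 and 2 of XY E12.5 (adjusted p up to 0.13), and that in XY without 7 of the 12 arrays, all but pools 2 and 3 of XX E11.5, pool 3 of XY E11.5 and pools 2 and 3 of XX E12.5 (adjusted p up to 0.12). Sema3b rose 2.46-fold in XY (adjusted p = 0.032) at 1 of 3 probe sets, which read 6.12, 5.54 and 6.24 in the XX and 5.82, 6.08 and 6.0 in the XY pools of E11.5, and 6.93, 6.91 and 6.97 in the XX and 7.08, 6.69 and 8.04 in the XY pools of E12.5. That call was lost without 6 of the 12 arrays, all but pools 1, 2 and 3 of XX E11.5, pools 1 and 2 of XX E12.5 and pool 2 of XY E12.5 (adjusted p up to 0.091). The other 2 probe sets differed by 0.0 and 1.24 in XY, without a call. Sema3d, Sema3e and Sema3f had no called probe set, and Sema3d averaged between 3.98 and 4.89 in the 4 groups at its brightest, in the background range.

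**Figure D4:**
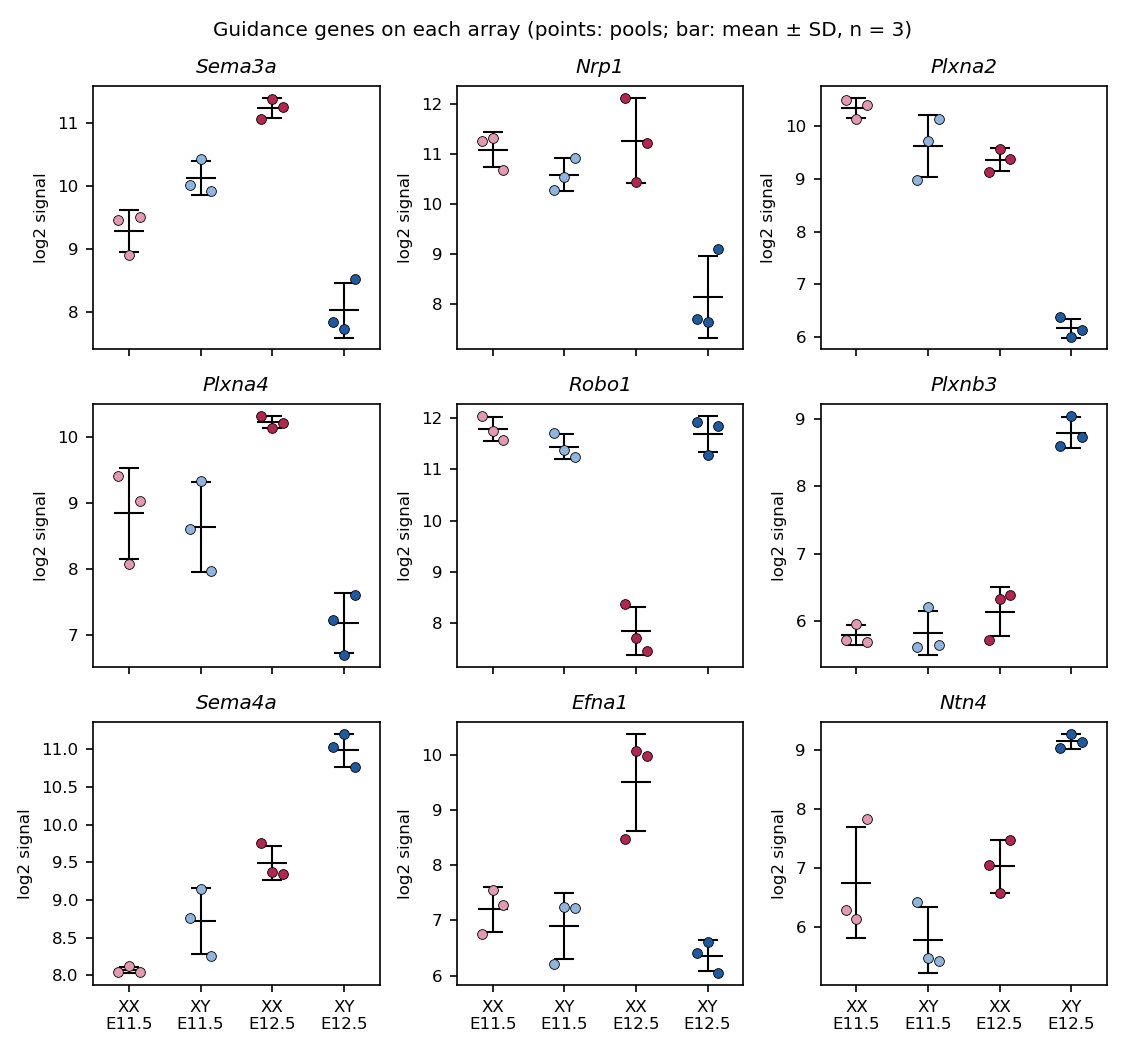
Log2 signal (vertical axes) of 9 guidance genes in the 4 groups (horizontal axes). Each point is 1 pool, the horizontal bar the mean of 3 pools and the error bars the SD; in XY at E12.5 Sema3a, Nrp1, Plxna2 and Plxna4 are at their lowest, Plxnb3, Sema4a and Ntn4 at their highest.

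Semaphorins of classes 4 to 7 had more calls upward than downward over the day. Of 30 probe sets 5 rose in XX and 6 rose and 1 fell in XY, where 1.69% of all probe sets rose in XX and 3.18% rose and 2.98% fell in XY. Sema5b and Sema4a rose in both sexes.

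Sema5b, a semaphorin with thrombospondin repeats, read 8.54, 8.42 and 8.7 in the XX and 8.58, 8.92 and 9.01 in the XY pools of E11.5, and 10.75, 10.53 and 10.24 in the XX and 10.42, 10.57 and 10.44 in the XY pools of E12.5. The E12.5 pools of both sexes lay above all E11.5 pools. The rise was 3.87-fold in XX (3.03 to 4.93; adjusted p = 0.00086) and 3.11-fold in XY (2.44 to 3.97; adjusted p = 0.00032), and the sexes differed at E12.5 by -0.03 ± 0.16 (95% interval -0.38 to 0.32). The second probe set rose 1.79-fold and 1.8-fold (adjusted p = 0.019 and 0.0085), with the XX call lost without pool 2 of XX E11.5 or pools 2 or 3 of XX E12.5 (adjusted p up to 0.082).

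Sema4a, best known in immune cells and retina, rose in both sexes and was higher in XY. It read 8.04, 8.12 and 8.05 in the XX and 8.76, 9.14 and 8.26 in the XY pools of E11.5, and 9.76, 9.37 and 9.34 in the XX and 11.03, 11.2 and 10.76 in the XY pools of E12.5. At E12.5 the XY pools lay above the XX pools, and both above every pool of E11.5. XY was 2.83-fold higher at E12.5 (2.04 to 3.94; adjusted p = 0.0021), after a rise of 2.68-fold in XX (adjusted p = 0.012) and of 4.83-fold in XY (adjusted p = 0.00029). This is an _x_at probe set, whose probes may also detect related transcripts. The other probe set was 2.67-fold higher in XY (adjusted p = 0.023), a call lost without pools 1 or 3 of XX E12.5 (adjusted p up to 0.092), and rose 4.07-fold in XY (adjusted p = 0.0056). In XX it differed by 1.08 over the day, without a call.

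Sema4d, the ligand of plexin B1, rose 1.86-fold in XX (adjusted p = 0.043) and 1.86-fold in XY (adjusted p = 0.028) at 1 of 3 probe sets. The values were 7.41, 7.1 and 6.87 in the XX and 7.1, 7.63 and 7.02 in the XY pools of E11.5, and 8.23, 7.75 and 8.1 in the XX and 8.07, 8.11 and 8.25 in the XY pools of E12.5. The XX call was lost without 8 of the 12 arrays, all but pool 1 of XX E11.5 and pools 1, 2 and 3 of XY E11.5 (adjusted p up to 0.15). The XY call was lost without pools 1 or 3 of XY E11.5 or pools 1, 2 or 3 of XY E12.5 (adjusted p up to 0.11). The other 2 probe sets had differences of 0.2 and 0.19 in XX and 0.08 and -0.11 in XY, without a call. Plxnb1, its receptor gene, was not called in any comparison and averaged 10.17 to 10.61 in the 4 groups.

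Sema4g read 8.76, 8.03 and 8.25 in the XX and 7.99, 8.81 and 8.5 in the XY pools of E11.5, and 9.61, 10.33 and 9.65 in the XX and 8.72, 8.89 and 9.01 in the XY pools of E12.5. The 3 XX pools of E12.5 were the highest, and the rise in XX was 2.86-fold (adjusted p = 0.02), lost without pools 2 or 3 of XX E11.5 or pools 2 or 3 of XX E12.5 (adjusted p up to 0.077). At E12.5 it differed by -0.99 ± 0.27 between XY and XX without a call (adjusted p = 0.052). That difference was called with brighter probe sets alone (adjusted p = 0.033) and with array weights (0.02), among other settings. Sema6d, whose product binds plexin A1, read 10.95, 11.12 and 11.35 in the XX and 10.85, 10.75 and 10.69 in the XY pools of E11.5, and 11.47, 11.71 and 11.75 in the XX and 10.45, 10.66 and 10.51 in the XY pools of E12.5 at its brightest probe set. XX pools were above XY pools at E12.5, and the difference was -1.1 ± 0.13 (adjusted p = 0.00066). A second of 4 probe sets was 2.13-fold lower (adjusted p = 0.0015) and fell 1.54-fold in XY over the day (adjusted p = 0.035). That day call was lost without 7 of the 12 arrays, all but pools 1, 2 and 3 of XX E11.5, pool 1 of XX E12.5 and pool 1 of XY E12.5 (adjusted p up to 0.1). The remaining pair differed by 0.19 and -0.05 between the sexes, and the 3 without a day call by -0.19, -0.22 and -0.07 over the day in XY.

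Plxnb3, an X-linked type B plexin gene, was at its highest in XY at E12.5. It read 5.72, 5.96 and 5.68 in the XX and 5.62, 6.21 and 5.65 in the XY pools of E11.5, and 5.71, 6.32 and 6.38 in the XX and 8.6, 9.05 and 8.74 in the XY pools of E12.5. The 9 arrays outside XY E12.5 lay at or under 6.38 and the 3 XY E12.5 arrays at or above 8.6. XY was 6.3-fold higher than XX at E12.5 (4.49 to 8.85; adjusted p = 7.9e-05), and the rise in XY was 7.84-fold (adjusted p = 6.8e-05). The second probe set was 1.77-fold higher (adjusted p = 0.0076) and rose 1.87-fold in XY (adjusted p = 0.0068). All 4 calls held with each array left out in turn. The brighter is an _s_at probe set, which can detect related transcripts.

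Sema5a, whose product binds plexin B3, gave unlike readings at its 4 probe sets. The brightest read 6.61, 7.87 and 7.92 in the XX and 9.32, 8.64 and 6.43 in the XY pools of E11.5, and 8.32, 8.59 and 8.14 in the XX and 11.12, 10.31 and 10.58 in the XY pools of E12.5. There XY E12.5 pools were above all others, while the XY E11.5 pools ranged from 6.43 to 9.32. The rise in XY was 5.81-fold (2.17 to 15.6; adjusted p = 0.046) at 1 of 4 probe sets and was lost without 10 of the 12 arrays, all but pool 1 of XX E11.5 and pool 1 of XY E11.5 (adjusted p up to 0.12). The sex difference at E12.5 of 2.32 ± 0.64 fell short of a call (adjusted p = 0.056). It was called without XY E11.5 pool 1 (adjusted p = 0.033) or pool 3 (adjusted p = 0.0056). The other 3 probe sets differed over the day in XY by 0.5, -1.6 and 0.56, without a call and not in 1 direction. The one with the difference below 0 went from 8.75, 6.49 and 6.94 to 6.04, 6.04 and 5.3 in the XY pools. The sex differences of these 3 at E12.5 were 0.02, 0.92 and 0.0.

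Plxnc1, a receptor of Sema7a, rose 1.92-fold in XX (adjusted p = 0.024) at 1 of 6 probe sets, from 9.76, 9.78 and 10.18 to 11.02, 10.84 and 10.68. In XY it read 10.43, 10.82 and 10.52 and then 10.58, 10.52 and 10.96, with no called change (0.09 ± 0.17). The XX call was lost without pool 2 of XX E11.5 or pools 2 or 3 of XX E12.5 (adjusted p up to 0.088). The other 5 probe sets differed by 0.68, 0.15, -0.67, -0.29 and -0.63 in XX, without a call and in both directions. Sema7a itself was not called in either sex in the fit to all arrays, at log2 differences of 1.09 in XX and 1.31 in XY, but was called in XY without XX E11.5 pool 1 (adjusted p = 0.026) or pool 2 (adjusted p = 0.0034). Plxnb2 and Plxnd1 had no call.

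Robo1, a receptor of the secreted Slit ligands, had the largest sex difference of the 152 guidance probe sets at E12.5, with a fall in XX over the day. It read 12.04, 11.74 and 11.57 in the XX and 11.7, 11.38 and 11.23 in the XY pools of E11.5, and 8.37, 7.71 and 7.46 in the XX and 11.92, 11.28 and 11.85 in the XY pools of E12.5. The 3 XX pools of E12.5 lay at or under 8.37, and the other 9 arrays all between 11.23 and 12.04. XY was 14.3-fold higher than XX at E12.5 (9.61 to 21.3; adjusted p = 2.7e-05). In XX the level fell 15.3-fold over the day (10.3 to 22.8; adjusted p = 0.00047), and in XY the difference was 0.25 ± 0.26 (adjusted p = 0.67). The difference between the 2 sex differences was itself called (4.18 ± 0.37; adjusted p = 0.00064), and all 3 calls held with each array left out in turn. Of the other 2 Robo1 probe sets, 1 differed in the same direction at E12.5 (1.41 ± 0.51, SE) without a call and had no overlap between the sexes, and the dimmer differed by 0.65. In XX over the day the same pair differed by -1.3 and 0.19, without a call.

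Of the ligands of Robo1, Slit1 and Slit2 gave no call, and Slit3 was not measured. Slit1 averaged 5.99 to 6.42 in the 4 groups and Slit2 4.79 to 6.05, each at its single measured probe set. The Slit2 mean of 4.79, in XX at E12.5, lay in the background range. Slit2 was highest in XX E11.5 pool 2 at 7.96. Robo2 averaged 3.64 to 4.63, in the background range, Robo3 5.05 to 5.37 and Robo4, a Robo gene of endothelium, 6.05 to 6.5, without a call in any comparison.

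Both netrin genes that were called rose in XY. Ntn4, a netrin of basement membranes, read 6.29, 6.13 and 7.83 in the XX and 6.43, 5.48 and 5.43 in the XY pools of E11.5, and 7.05, 6.57 and 7.48 in the XX and 9.03, 9.28 and 9.14 in the XY pools of E12.5. The XY pools of E12.5 lay at or above 9.03 and all other arrays at or under 7.83, and the rise in XY was 10.4-fold (5.25 to 20.4; adjusted p = 0.002). At E12.5 XY was 4.34-fold higher (2.2 to 8.55; adjusted p = 0.016), a call lost without pool 2 of XX E12.5 or pools 2 or 3 of XY E12.5 (adjusted p up to 0.063). The second Ntn4 probe set read 4.28 to 5.1 on the 12 arrays, in the background range.

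Ntn1, the netrin that attracts commissural axons, read 5.76, 5.85 and 6.08 in the XX and 6.33, 5.89 and 5.79 in the XY pools of E11.5, and 6.21, 5.64 and 6.03 in the XX and 7.13, 7.23 and 6.84 in the XY pools of E12.5. The 3 XY pools of E12.5 were the highest. The level was 2.16-fold higher in XY at E12.5 (1.6 to 2.9; adjusted p = 0.0064) and rose 2.09-fold in XY (adjusted p = 0.011), with both calls kept whichever array was left out. Its other probe set read 4.66 to 5.14. Ntn3 and Ntn5 were not called.

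Of the 6 netrin receptor genes Neo1 and Dcc had calls. Neo1, which also binds the repulsive guidance molecules, read 13.4, 13.1 and 13.25 in the XX and 13.31, 13.44 and 13.43 in the XY pools of E11.5, and 13.43, 13.39 and 13.38 in the XX and 13.03, 12.77 and 13.05 in the XY pools of E12.5 at its brightest probe set. In XY at E12.5 it was 1.36-fold lower than in XX (adjusted p = 0.038) and 1.36-fold lower than at E11.5 (adjusted p = 0.048), small differences that were larger than the spread between pools. The sex call was lost without 9 of the 12 arrays, all but pools 1 and 2 of XX E11.5 and pool 1 of XY E11.5 (adjusted p up to 0.12). The day call was lost without 10 of the 12 arrays, all but pools 1 and 2 of XX E11.5 (adjusted p up to 0.15). A dimmer Neo1 probe set fell at least 11.1-fold in XY (adjusted p = 0.024), from 7.71, 6.42 and 9.63 to 4.45, 4.78 and 4.13, and differed by -3.17 ± 0.75 in XX without a call (adjusted p = 0.051). The XY call there was lost without pools 1 or 3 of XY E11.5 or pools 1, 2 or 3 of XY E12.5 (adjusted p up to 0.086). Its size was far from the differences of -0.95, -0.94, -0.44 and -0.25 at the other 4 Neo1 probe sets. Between the sexes at E12.5 the 4 probe sets without a call differed by -0.74, -0.49, -0.89 and 0.02.

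Dcc, the receptor through which netrins attract, rose 1.59-fold at 1 of 3 probe sets in XX (adjusted p = 0.04), from 7.02, 6.78 and 6.57 to 7.3, 7.65 and 7.42. In XY it read 6.99, 7.11 and 6.81 and then 7.11, 7.16 and 7.18. The call was lost without 7 of the 12 arrays, all but pool 1 of XX E11.5, pools 1, 2 and 3 of XY E11.5 and pool 1 of XX E12.5 (adjusted p up to 0.14). The other 2 probe sets differed by -0.86 and -0.12 in XX, without a call. No Unc5 gene was called, and Unc5b and Unc5c, both highest in XX E11.5 pool 2, differed between the sexes at E12.5 by -0.12 and 0.16.

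Among ephrins the A ligand Efna1 and the B ligand Efnb1 were lower in XY at E12.5, while the called Eph receptors were higher. Efna1 read 6.76, 7.55 and 7.28 in the XX and 6.22, 7.25 and 7.23 in the XY pools of E11.5, and 8.48, 10.06 and 9.97 in the XX and 6.42, 6.61 and 6.05 in the XY pools of E12.5. The XX pools of E12.5 stood above all others, and the level was 8.82-fold lower in XY (4.53 to 17.2; adjusted p = 0.0017). Efna1 rose 4.95-fold in XX over the day (adjusted p = 0.025), a call lost without pool 3 of XX E11.5 or pools 2 or 3 of XX E12.5 (adjusted p up to 0.11) and absent at the other probe set (0.76), and differed by -0.54 ± 0.43 in XY without a call. The second probe set was 1.76-fold lower in XY at E12.5 (adjusted p = 0.035), lost without 6 of the 12 arrays, all but pools 1, 2 and 3 of XX E11.5, pools 1 and 3 of XY E11.5 and pool 1 of XX E12.5 (adjusted p up to 0.13). Efna2, Efna3, Efna4 and Efna5 were not called, although Efna5 differed by -1.03 ± 0.5 at E12.5 and was called without XX E11.5 pool 2 (adjusted p = 0.036).

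Epha2, a receptor that binds ephrin-A1, read 7.47, 7.62 and 7.48 in the XX and 7.53, 7.57 and 7.48 in the XY pools of E11.5, and 7.41, 7.17 and 7.19 in the XX and 8.2, 7.84 and 8.05 in the XY pools of E12.5. The XY pools of E12.5 were the highest of all arrays, and the level was 1.71-fold higher than in XX (1.43 to 2.05; adjusted p = 0.0031). It rose 1.42-fold in XY (adjusted p = 0.034), a call lost without 6 of the 12 arrays, all but pools 1, 2 and 3 of XX E11.5, pools 1 and 2 of XX E12.5 and pool 2 of XY E12.5 (adjusted p up to 0.11). Epha4, which binds ephrins of both types, fell 1.91-fold in XY (adjusted p = 0.024) at 1 of 5 probe sets, from 8.18, 8.38 and 7.66 to 7.44, 6.99 and 6.98, and that call was lost without pools 1 or 2 of XY E11.5 or pools 2 or 3 of XY E12.5 (adjusted p up to 0.091). The other 4 probe sets differed by -1.55, -1.21, -2.36 and -0.68 in XY, without a call. In XX the difference was -0.63 ± 0.2, from 7.72, 7.63 and 7.4 to 6.98, 6.78 and 7.09, without overlap and without a call (adjusted p = 0.11). The other 7 EphA genes were not called, among them Epha7, which averaged 9.55 to 10.41, and Epha3, which ranged from 4.22 to 8.82 with its highest value in XX E11.5 pool 2.

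Efnb1, an X-linked gene, was lower in XY at E12.5 at all 3 of its probe sets. Its brightest read 9.67, 9.57 and 9.69 in the XX and 9.66, 10.01 and 9.98 in the XY pools of E11.5, and 9.66, 10.01 and 10.11 in the XX and 8.84, 9.18 and 9.24 in the XY pools of E12.5. The XY pools of E12.5 were below every other array, with a level 1.79-fold lower than in XX (1.4 to 2.29; adjusted p = 0.0098) and a fall in XY of 1.74-fold (adjusted p = 0.017). That fall was lost without pool 3 of XY E11.5 or pool 1 of XY E12.5 (adjusted p up to 0.068). A second probe set read 8.71, 7.57 and 8.29 in XX and 6.75, 6.77 and 6.6 in XY at E12.5, which is 2.8-fold lower (adjusted p = 0.02; lost without pools 1 or 3 of XX E12.5 or pools 1, 2 or 3 of XY E12.5 (adjusted p up to 0.075)), and fell 3.86-fold in XY (adjusted p = 0.0075). The third was 1.53-fold lower (adjusted p = 0.037), lost without 7 of the 12 arrays, all but pools 1 and 2 of XX E11.5, pools 1 and 3 of XY E11.5 and pool 1 of XX E12.5 (adjusted p up to 0.13). Over the day in XY the third differed by -0.49, without a call.

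Ephb1 read 9.58, 9.34 and 9.66 in the XX and 10.18, 10.11 and 10.29 in the XY pools of E11.5, and 9.4, 9.12 and 8.93 in the XX and 9.92, 10.15 and 9.89 in the XY pools of E12.5. XY pools lay above XX pools at both days, and at E12.5 the level was 1.79-fold higher (1.43 to 2.23; adjusted p = 0.0061). Ephb6, a member of the family without kinase activity, read 9.0, 8.14 and 8.14 in the XX and 8.66, 9.03 and 9.03 in the XY pools of E11.5, and 8.25, 8.65 and 8.49 in the XX and 9.35, 10.41 and 9.63 in the XY pools of E12.5. It was 2.51-fold higher in XY at E12.5 (1.58 to 3.99; adjusted p = 0.023), lost without pools 1, 2 or 3 of XX E12.5 or pools 2 or 3 of XY E12.5 (adjusted p up to 0.08). Ephb3 and Ephb4 differed by 0.28 and 0.03 at E12.5 without a call, and Efnb2, a ligand of both that is known from arteries, differed by 0.97 at its brightest probe set without a call.

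Over the day guidance genes rose and fell in both sexes. In XX 12 of 152 probe sets were called between the days (7.89%, against 3.11% of all), 10 up (6.58%, against 1.69% of all) and 2 down (1.32%, against 1.43% of all). They belong to 10 of the 69 genes (against 5.88% of all genes), of which Sema3a, Sema4a, Sema4d, Sema4g, Sema5b, Efna1, Plxnc1 and Dcc rose and Robo1 and Sema3c fell. In XY 24 were called (15.8%, against 6.16% of all), 13 up (8.55%, against 3.18%) and 11 down (7.24%, against 2.98%). These belong to 18 genes (26.1%, against 10.7% of all genes). There the genes that rose were Sema3b, Sema4a, Sema4d, Sema5a, Sema5b, Plxna1, Plxnb3, Ntn1, Ntn4 and Epha2, and those that fell were Sema3a, Sema3c, Sema6d, Nrp1, Plxna2, Neo1, Efnb1 and Epha4. Of 6 probe sets called in both sexes 5 moved in the same direction (41.7% of the XX calls and 20.8% of the XY calls), those of Sema3c, Sema4a, Sema4d and Sema5b. The other was Sema3a, up in XX and down in XY. The XX count was 20 without pool 1 of XX E11.5, 6 without pool 2, and 4 without pool 2 or pool 3 of XX E12.5. The XY count was 15 without pool 1 of XY E11.5, 16 without pool 3, and 16, 16 and 13 without pools 1, 2 and 3 of XY E12.5.

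**Figure D5:**
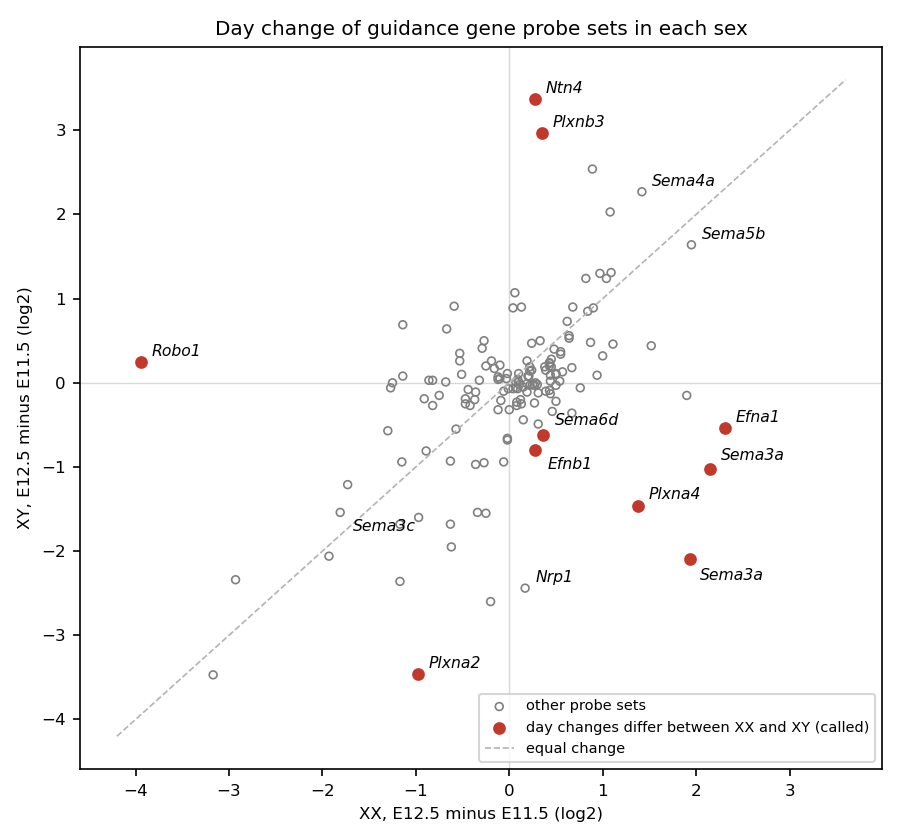
Change from E11.5 to E12.5 in XX (horizontal axis, log2) against that in XY (vertical axis, log2) for the 152 guidance probe sets. Filled red points are the 10 at which the 2 changes differed by a call, the dashed line marks equal change; Robo1 lies far to the left near 0 in XY, and Ntn4 and Plxnb3 lie at the top near 0 in XX.

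Whether the sex difference itself changed between the days was tested as an interaction. It was called at 10 of 152 guidance probe sets (6.58%, against 1.75% of all), 3 toward XY (1.97%, against 0.796%) and 7 toward XX (4.61%, against 0.954%). With each array centred on its median the split was 4 and 5 of 9. Leaving out 1 array gave 4 to 12 calls, and 4 to 6 without pools 2 or 3 of XX E11.5, pool 2 of XY E11.5, pools 2 or 3 of XX E12.5 or any pool of XY E12.5. The 3 toward XY were Robo1 (4.18 ± 0.37, SE; adjusted p = 0.00064), Ntn4 (3.09 ± 0.62; 0.039) and Plxnb3 (2.62 ± 0.31; 0.003). Toward XX were Sema3a at 2 probe sets (-4.02 ± 0.34 and -3.18 ± 0.52; adjusted p = 0.00053 and 0.015), Efna1 (-2.85 ± 0.61; 0.04998), Plxna4 (-2.84 ± 0.56; 0.036), Plxna2 (-2.48 ± 0.37; 0.0086), Efnb1 (-1.08 ± 0.22; 0.043) and Sema6d (-0.99 ± 0.21; 0.046). Nrp1, with -2.61 ± 0.66, was not called in the fit to all arrays (adjusted p = 0.086). It was called with brighter probe sets alone (adjusted p = 0.046), with 1 probe set per gene (0.049) and without XY E12.5 pool 3 (0.042). Whether a change in the sex difference of Nrp1 is called therefore depends on the setting. The calls of Robo1, Plxnb3, Plxna2 and the brightest Sema3a probe set held with every array left out in turn, and the second Sema3a call was lost without pool 3 of XX E12.5 (adjusted p up to 0.05032). That of Ntn4 was lost without 8 of the 12 arrays, all but pools 1, 2 and 3 of XX E11.5 and pool 1 of XY E11.5 (adjusted p up to 0.1). That of Plxna4 was lost without 9 of the 12 arrays, all but pool 1 of XX E11.5 and pools 1 and 3 of XY E11.5 (adjusted p up to 0.092). The call of Efna1 was lost without 10 of the 12 arrays, all but pool 1 of XY E11.5 and pool 1 of XX E12.5 (adjusted p up to 0.12) and that of Efnb1 without 10 of the 12 arrays, all but pool 1 of XY E11.5 and pool 1 of XX E12.5 (adjusted p up to 0.11). Sema6d was lost without 9 of the 12 arrays, all but pool 1 of XX E11.5, pool 1 of XY E11.5 and pool 1 of XY E12.5 (adjusted p up to 0.11). At the other probe sets of the genes with a called interaction it was not called. The values there were 0.08 and 0.72 for Robo1, -0.4 for Ntn4, 0.77 for Plxnb3, -0.31 for Sema3a and -0.82 for Efna1. They were -0.2 for Plxna4, 0.58, -2.4 and -0.13 for Plxna2, -1.33 and -0.8 for Efnb1 and 0.28, -0.73 and -0.16 for Sema6d. The brightest probe sets of Plxna2 (-2.4) and Sema6d (-0.73) were among those not called. The comparisons at E12.5, over the day and of the interaction share arrays, so their calls are not independent of each other.

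Among 29 measured coreceptors and other ligands of these receptors the share of calls at E12.5 was near that of all genes. Of the genes 3 were higher in XY and 2 lower (17.2%, against 13.9% of all genes), and of their 78 probe sets 3 were higher and 3 lower (7.69%, against 7.72%). Islr2, a neurite outgrowth gene, was 4.33-fold higher (adjusted p = 3.5e-05), Gpc1, a heparan sulfate glypican, 1.96-fold and Rgmb, a Neo1 ligand, 1.9-fold. Boc, a hedgehog coreceptor that also acts in commissural axon guidance, was 4.81-fold lower and Flrt2, a ligand of Unc5 receptors, 3.46-fold lower. Over the day 1 rose and 1 fell in XX (Gpc1, 1.49-fold, and Rgmb at another probe set, 9.64-fold) and 2 rose and 3 fell in XY (Gpc1 and Islr2, and Cdon, Flrt2 and Ntng1), which is 6.9% and 17.2% of the list, against 5.88% and 10.7% of all genes. By probe set the day shares were 2.56% in XX and 6.41% in XY, against 3.11% and 6.16% of all probe sets. Kdr and Flt1 of this list are also endothelial markers, and neither was called.

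Of 51 measured cytoplasmic effectors 8 were higher and 6 lower in XY at E12.5 (27.5%, against 13.9% of all genes). By probe set 10 of 142 were higher and 7 lower, where 7.72% of all probe sets were called; the list has 142 probe sets for 51 genes, and all 17996 genes have 34328, so a gene of the list had more probe sets that could be called. Higher were Pak3, a kinase downstream of Rac (15.3-fold; adjusted p = 0.00043), Ngef, the ephexin exchange factor of Eph receptors (4.26-fold), Tiam1 (3.65-fold), Nck2 (2.55-fold), Farp1 (2.22-fold), Mical1 (2.07-fold), Trio (1.94-fold) and Dpysl5 (1.82-fold). Lower were Vav3, a guanine nucleotide exchange factor (37.0-fold; adjusted p = 0.00027), Gsk3b (2.8-fold), Srgap2 of Robo signalling (2.54-fold), Rras (2.42-fold), Rac1 (1.68-fold) and Grb2 (1.57-fold). The median difference over the brightest probe sets of the list was 0.09 at E12.5, against 0.0 over all probe sets. Over the day 2 rose and 4 fell in XX, and 9 rose and 4 fell in XY (11.8% and 25.5%, against 5.88% and 10.7% of all genes), where Vav3 fell 42.8-fold.

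Of the 69 measured guidance genes 41 had no call in any comparison and 28 had at least 1. The lack of a call does not show that a gene did not change, since the fit called few small changes in simulated data. Each of the 27 probe sets called between the sexes at E12.5 kept its direction under every alternative run, and 18 of them kept the call without each array. These 18 were of Robo1, Sema3a, Plxna2, Plxnb3, Sema6d, Plxna4, Sema4a, Efna1, Nrp1, Epha2, Sema3g, Ephb1, Ntn1 and Efnb1.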

How the data were processed

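RNA of 12 pools, 3 in each of 4 groups, was measured on 1 single-colour Affymetrix Mouse Genome 430 2.0 array per pool. The table holds log2 values that the authors deposited, with array medians of 6.494 to 6.592; their summary, background correction and normalization are not stated by labels or headers, and the log2 scale was read from the values. No counts underlie them, and the number of arrays limits the precision. Of 45037 probe sets 798 were blank on all arrays and 1 on some, which left 44238. Platform symbols were updated through RefSeq for 34126 probe sets; 34328 had 1 symbol, 850 several and 9060 none. Members were all probe sets with 1 symbol in the named families. The members, pathway lists and marker lists were chosen with earlier results of these data known.

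A mean per group was fitted to all 12 arrays with limma 3.58.1 (R 4.3.3; lmFit and eBayes, 8 residual and 2.11 prior degrees of freedom), with 5 contrasts: XY minus XX at each day, E12.5 minus E11.5 for XX and for XY, and the difference of the 2 sex differences. P-values were two-sided and adjusted by Benjamini and Hochberg's method over all 44238, with a threshold of 0.05. Every member gene with a call was named, at its called probe set with the smallest p. For the day changes of Neo1 and Efnb1 the brightest probe set was given first. The differences at the other probe sets of a gene were given for the comparisons of sex and day that called it. For some probe sets in the background range the values were given instead. List genes were named where called. Different probe sets were not compared in level. The fit was tested on simulated data, with changes placed at random among all probe sets. A log2 change of 1 was called at 46% of the changed probe sets between the sexes at E11.5 and at 32% at E12.5. Over the day the shares were 54% in XX and 44% in XY, and for the interaction 28%. A change of 0.5 was called at 0% to 12%. Few probe sets were changed there, so these shares do not carry over directly to comparisons with many calls. Alternatives were quantile normalization, median centring, brighter probe sets alone, a variance prior with a trend on signal, weights per array, a replicate block, 1 probe set per gene, the compared arrays alone and leaving out each array. Promoters are RefSeq entries on GRCm38.p6. Tables and plots were made with Python 3.11.15, pandas 2.3.3 and matplotlib 3.10.9.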

Additional observations from a re-analysis of the deposited data

Results flagged for a closer look

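At 10 guidance probe sets the difference between XY and XX changed between E11.5 and E12.5 by limma's interaction test over all 44238 probe sets. The change, as the log2 sex difference at E12.5 minus that at E11.5, was 4.18 for Robo1, 3.09 for Ntn4 and 2.62 for Plxnb3. It was -4.02 and -3.18 at 2 probe sets of Sema3a, -2.85 for Efna1, -2.84 for Plxna4 and -2.48 for Plxna2. For Efnb1 it was -1.08 and for Sema6d -0.99. No other probe set of these genes was called, among them the brightest of Plxna2 and of Sema6d. Outside Sema3a the calls thus rest on 1 probe set per gene. Some probe sets not called lay close to the called value (-2.4 for Plxna2), and others did not (0.08 for Robo1). The calls of Robo1, Plxnb3, Plxna2 and the brighter Sema3a probe set held without any 1 array, and the other 6 did not.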

How the results depend on the processing

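In the fit to all arrays 0 guidance probe sets were called between the sexes at E11.5, 27 at E12.5, 12 over the day in XX, 24 over the day in XY and 10 for the interaction. Leaving out 1 array gave 0 to 1, 19 to 31, 4 to 20, 13 to 26 and 4 to 12. The day count in XX was 21 with array weights and 5 with the compared arrays alone, where the day count in XY was 12; the latter setting has fewer arrays per fit, and the cause of the former was not tested. The other counts stayed within 1.5 times of these under quantile normalization, median centring, brighter probe sets, a variance prior that follows the mean, the replicate block and 1 probe set per gene. No call changed its sign under any of these alternatives. Some differences that were not called in the fit to all arrays were called under an alternative. All of the leave-one-out runs kept 18 of 27, 4 of 12, 11 of 24 and 4 of 10 calls. A pairing of samples by pool number was not apparent: 4 of 18 same-numbered pairs of pools had a correlation above 0.1, with a range of -0.40 to 0.23. Differently numbered pairs ranged from -0.36 to 0.396. Deviations from means of 3 pools cannot exclude a pairing. With the pool number as a replicate block the counts were 0, 25, 12, 21 and 7. With 3 pools a group and no stated litters, many small differences are beyond these data, in dim probe sets and in others. The values of 29 guidance probe sets averaged at or under the background level of 5.17.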
